A study of Saccharomyces cerevisiae with 18 samples.

Results

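Heat and salt were set directly against each other in wild-type (WT) budding yeast, Saccharomyces cerevisiae. The comparison used 3 libraries of WT cells held for 10 min at 39 °C and 3 libraries of WT cells held for 15 min in 0.4 M NaCl, chosen by their titles, 6 of the 18 libraries in the series. Every gene was tested for heat minus NaCl, a question set to tell expression that belongs to 1 stress from expression common to both. The agent and the time under stress differ together, so the part of each cannot be told apart.

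All the cells were MATa and derived from FY406, with his3delta200, leu2delta1, ura3-52, trp1delta63 and lys2-128delta. In every group LEU2 replaced the chromosomal HTA1-HTB1 pair and TRP1 replaced HTA2-HTB2, so histones H2A and H2B came from a plasmid that carries HTA1-HTB1. The labels differ on that plasmid's marker, naming HIS3, HIS4 or HIS5 by replicate in every group. In WT it encoded unchanged histones, and in the mutant it encoded H2A S121A, in which alanine replaces a serine. Cultures grew in YPD, a rich glucose medium, to log phase at 30 °C before either stress. The 3 unstressed WT libraries are given beside the stressed ones, and 6 stressed libraries of the S121A strain served as a separate set for the same heat minus NaCl difference. The labels number the replicates and do not say whether they came from separate cultures, so p-values measure only the spread between these samples.

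In yeast, heat shock activates the transcription factor Hsf1, which binds heat shock elements, inverted repeats of GAA, upstream of chaperone genes. High salt activates the MAP kinase Hog1 of the high osmolarity glycerol (HOG) pathway, which raises the synthesis and uptake of glycerol and the export of sodium. Both stresses also bring Msn2 and Msn4 to stress response elements in the promoters of general stress genes, and both lower the messages for making ribosomes.

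Messenger RNA was read as counts per gene. Total counts ran from 44.79 to 47 M (mega) in the NaCl libraries and from 42.89 to 50.1 M in the heated ones. Levels are given as CPM, the counts of a gene per M counts of the library after TMM scaling in edgeR, so every value is relative to the other messages of its library. Differences are log2 values from 1 edgeR model over all 18 libraries, with their standard error (SE) and Benjamini-Hochberg adjusted p over the 6395 genes tested. The 10 most abundant genes took 13.5% to 14.8% of the counts in the NaCl libraries and 18.3% to 19.9% in the heated libraries. Of the 6 stressed libraries, heat replicate 1 and NaCl replicate 1 lay farthest from their own groups, with an SD of log2 deviations over genes of 0.164 and 0.15 against 0.079 to 0.112 in the other 4. The counts come from populations, in which fewer cells that express a gene and less RNA per cell cannot be told apart. The a-specific genes that mark MATa cells were present in all 9 WT libraries. Among the markers of MATalpha cells, MF(ALPHA)1 and MF(ALPHA)2 had group means of 0.514 to 1.34 CPM, STE3 of 4.18 to 9.45 and SAG1 of 36.9 to 90.1, and their part in the results was not tested.

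Heat and NaCl differed for most genes. In heat 2104 genes (32.9% of those tested) were higher than in NaCl and 2122 (33.2%) were lower, together 66.1%, at an adjusted p under 0.05. The counts given for gene lists below are to be read beside these shares. At least a 2-fold difference was called for 493 genes higher in heat (7.71%) and 765 lower (12%). For 1986 genes (31.1%) the 95% interval of the difference lay within -0.5 to 0.5 on the log2 scale, and these are called close here. With library totals in place of TMM the median of all genes moved to -0.26 and the split became 1209 higher and 3025 lower, so each difference below is relative to the bulk of messages.

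Setting each stress against unstressed cells sorted the genes into patterns, as a count without a test, because the responses share libraries. Both stresses raised 590 genes at least 2-fold to within 2-fold of each other, and both lowered 502 genes in the same way. Heat alone raised 215 genes and lowered 306. NaCl alone raised 95 genes and lowered 67. For a stress, alone means that the other response was under 2-fold, called or not, with at least a 2-fold gap between the stresses. Graded responses went the same way with at least a 2-fold gap between the stresses. Rises were larger in heat for 124 genes and larger in NaCl for 43, and falls were deeper in heat for 237 genes and deeper in NaCl for 18. Only 17 genes had opposite responses of at least 2-fold, 7 of them up in heat and 10 up in NaCl.

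**Figure D1:**
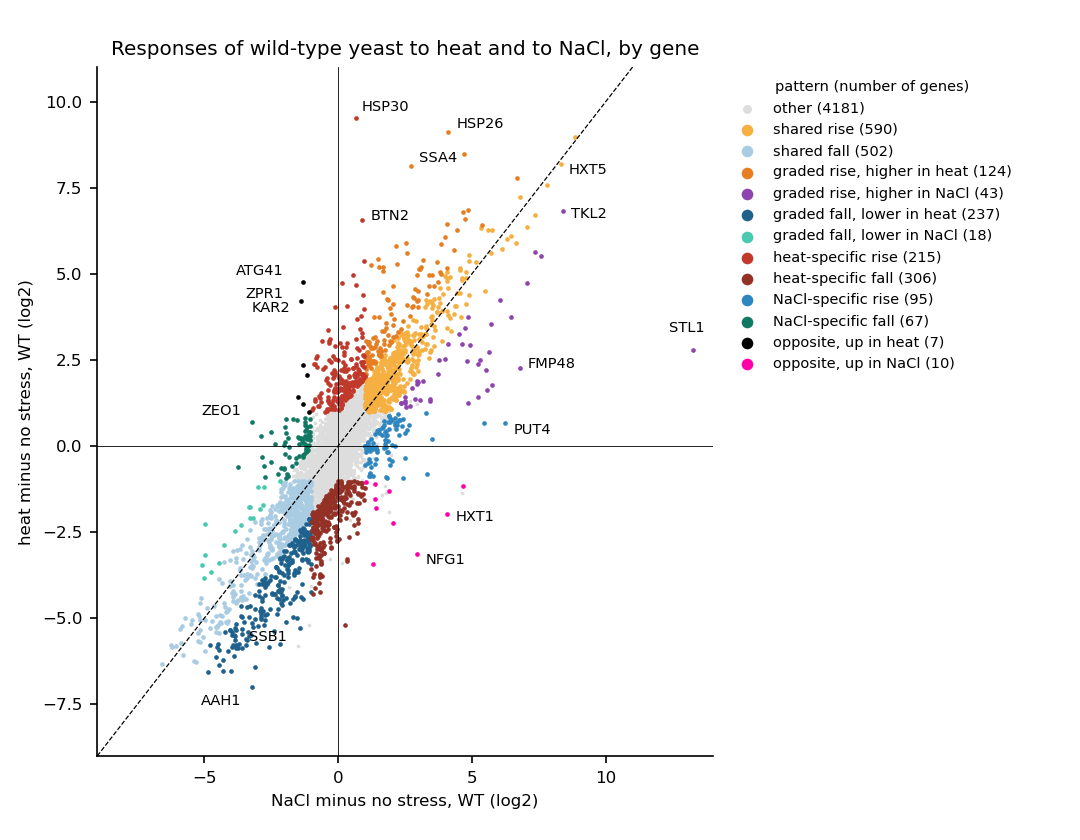
Log2 response of each gene to NaCl (horizontal axis) and to heat (vertical axis) in WT, each against unstressed WT, 3 libraries a group, coloured by pattern with the number of genes in each. The 590 shared rises and 502 shared falls lie near the diagonal, the 215 heat-specific rises stand above it near an NaCl response of 0, and STL1 stands alone at the right.

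The highest heat-to-NaCl ratio belonged to HSP30 (YCR021C, chromosome III, 156109 to 157107, build R64), which encodes a stress protein of the plasma membrane known to restrain the proton pump Pma1. HSP30 stood at 17.9, 17.6 and 16.4 CPM without stress, 25.7, 29.4 and 27.9 in NaCl and 14843, 11054 and 12186 in heat. It was 459-fold higher in heat, a log2 difference of 8.84 ± 0.14 (SE, n = 3 libraries a group, adjusted p = 1.55e-20 in edgeR). The heated libraries stood far above all others and the NaCl libraries just above the unstressed ones. Next came ATG41 (YPL250C, chromosome XVI, 74309 to 74719), needed for efficient autophagy, which the stresses moved in opposite directions. ATG41 stood at 41.3, 35.7 and 37.1 CPM without stress, 14.6, 18.2 and 13.1 in NaCl and 1204, 919 and 987 in heat. The NaCl libraries lay below the unstressed libraries and the heated libraries above both, and the difference was 6.08 ± 0.15. ZPR1 (YGR211W, chromosome VII, 915241 to 916701), which encodes a folding helper of translation elongation factor eEF1A, had the same form. ZPR1 stood at 181, 181 and 165 CPM without stress, 66.7, 69.4 and 67.7 in NaCl and 3452, 2983 and 3265 in heat. Its difference was 5.57 ± 0.10 and its groups did not overlap. The other opposite genes up in heat included YDJ1, an Hsp40 chaperone, with a difference of 3.67 ± 0.09, BUB1, a spindle checkpoint kinase, with 2.91 ± 0.10, and JEM1, a DnaJ chaperone of the endoplasmic reticulum, with 2.07 ± 0.09.

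BTN2 (YGR142W, chromosome VII, 772454 to 773686) encodes a sorting factor that gathers misfolded proteins. BTN2 stood at 20.4, 18.1 and 22.2 CPM without stress, 35.5, 40.5 and 37.3 in NaCl and 1548, 2013 and 2131 in heat. The NaCl libraries were above the unstressed ones by less than 2-fold and the heated libraries above all, a difference of 5.65 ± 0.12. FES1, which encodes a nucleotide exchange factor of Hsp70, differed by 4.61 ± 0.09 and responded to NaCl by 0.13. PIN3, an inhibitor of actin assembly, differed by 4.39 ± 0.11, and LST8 (YNL006W), a subunit of both TOR kinase complexes, by 4.39 ± 0.09. TMA10, which encodes a ribosome-associated protein, rose in both stresses, by 4.71 in NaCl and 8.47 in heat.

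The upstream sequences of the genes at each end of the comparison are printed to show what stands before genes that heat raises and before those that NaCl raises. Each window runs from 350 to 101 bases before the start codon, 5′ to 3′ on the gene's strand, cut from the R64 genome. Capitals mark matches, on either strand, to the heat shock core GAANNTTC, to its 3-unit forms GAANNTTCNNGAA and TTCNNGAANNTTC, to the stress response element AGGGG, to the Hot1 motif GGGACAAA, to the cyclic AMP response element core ACGTCA, which Sko1 binds, and to the unfolded protein response element CAGCGTG. HSP30, ATG41, STL1 and NFG1 were taken as the 2 highest and 2 lowest differences, and BTN2, KAR2 and LST8 were chosen after their values were seen.
HSP30: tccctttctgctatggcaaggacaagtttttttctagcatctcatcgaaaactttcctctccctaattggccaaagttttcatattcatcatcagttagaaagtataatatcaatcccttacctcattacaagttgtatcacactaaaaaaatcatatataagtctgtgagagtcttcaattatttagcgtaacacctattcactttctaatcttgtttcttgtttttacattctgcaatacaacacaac
ATG41: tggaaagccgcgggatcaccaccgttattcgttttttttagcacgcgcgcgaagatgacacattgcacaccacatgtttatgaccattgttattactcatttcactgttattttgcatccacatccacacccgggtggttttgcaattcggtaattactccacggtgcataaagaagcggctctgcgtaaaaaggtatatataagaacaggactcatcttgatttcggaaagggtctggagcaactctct
BTN2: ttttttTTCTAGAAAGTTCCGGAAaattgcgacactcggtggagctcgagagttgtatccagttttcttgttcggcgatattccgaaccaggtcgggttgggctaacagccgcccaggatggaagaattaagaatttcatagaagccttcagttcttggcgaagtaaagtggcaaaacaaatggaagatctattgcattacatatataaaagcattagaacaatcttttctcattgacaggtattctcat
LST8: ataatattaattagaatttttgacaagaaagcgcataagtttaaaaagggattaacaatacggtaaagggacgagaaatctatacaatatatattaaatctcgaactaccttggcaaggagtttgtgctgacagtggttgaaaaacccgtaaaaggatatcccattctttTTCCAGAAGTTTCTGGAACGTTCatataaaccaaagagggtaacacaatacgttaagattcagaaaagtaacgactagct
KAR2: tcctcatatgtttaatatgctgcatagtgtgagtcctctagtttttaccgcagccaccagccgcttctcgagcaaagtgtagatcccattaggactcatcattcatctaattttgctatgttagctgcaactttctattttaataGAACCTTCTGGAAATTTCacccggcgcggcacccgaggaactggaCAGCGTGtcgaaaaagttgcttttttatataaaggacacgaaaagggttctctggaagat
STL1: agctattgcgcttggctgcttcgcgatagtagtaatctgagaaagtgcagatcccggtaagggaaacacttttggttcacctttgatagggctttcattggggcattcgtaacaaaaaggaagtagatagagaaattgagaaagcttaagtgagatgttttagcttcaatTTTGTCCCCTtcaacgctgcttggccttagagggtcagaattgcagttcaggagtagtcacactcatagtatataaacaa
NFG1: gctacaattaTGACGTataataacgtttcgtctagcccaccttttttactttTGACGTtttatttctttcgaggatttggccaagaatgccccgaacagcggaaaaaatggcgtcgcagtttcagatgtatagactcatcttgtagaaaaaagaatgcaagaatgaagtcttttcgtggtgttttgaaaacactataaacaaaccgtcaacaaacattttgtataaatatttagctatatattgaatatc
The windows are chromosome III:157208-157457 on the minus strand for HSP30, XVI:74820-75069 on the minus strand for ATG41, VII:772104-772353 on the plus strand for BTN2, XIV:619717-619966 on the plus strand for LST8, X:380977-381226 on the plus strand for KAR2, IV:1507655-1507904 on the plus strand for STL1 and XII:230552-230801 on the minus strand for NFG1. BTN2, LST8 and KAR2 hold overlapping 3-unit heat shock elements, beginning 344 bases before the start codon in BTN2, 180 in LST8 and 205 in KAR2. KAR2 also holds an unfolded protein response element 160 bases before the start codon. BTN2, LST8 and KAR2 are not typical of genes that heat raises. In the 500 bases before the start codon, 20.2% of 109 genes at least 4-fold higher in heat hold a 3-unit element. STL1 holds a Hot1 motif that overlaps a stress response element, both on the reverse strand, and NFG1 holds 2 copies of the cyclic AMP response element core. The HSP30 and ATG41 windows hold none of these letters, which says nothing of the factors that bind there. A match is a description of the letters and not a binding site.

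Of 11 small heat shock and disaggregation genes, 8 were higher in heat, 0 were lower and 3 were close, with a median difference of 1.92 against 0.00 for all genes. Their summed counts took 0.0711% ± 0.00441 of each unstressed library, 0.758% ± 0.0517 under NaCl and 4.65% ± 0.206 in heat (SD, n = 3). The 11 include HSP30, the plasma membrane protein described above, so its counts are part of these shares. HSP26, a small heat shock protein that holds unfolded proteins, rose in both stresses, by 4.11 in NaCl and 9.13 in heat. HSP104 (YLL026W), the disaggregase that pulls proteins out of aggregates, did the same on a smaller scale. HSP104 stood at 343, 324 and 375 CPM without stress, 1909, 2105 and 2173 in NaCl and 17605, 15643 and 17372 in heat. The 3 groups were separate and stood in the order unstressed, NaCl, heat, with a heat minus NaCl difference of 3.03 ± 0.09.

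The cytosolic Hsp70 and Hsp110 family split by role. The stress-inducible and general members SSA1, SSA2, SSA3 and SSA4 and the Hsp110 exchange factors SSE1 and SSE2 were higher in heat, 6 of 9. The 3 lower members, SSB1, SSB2 and SSZ1, work on the ribosome with newly made chains. SSA4 (YER103W, chromosome V, 364589 to 366517) had the largest difference of the family. SSA4 stood at 92.2, 85.1 and 92.9 CPM without stress, 535, 596 and 654 in NaCl and 28829, 22036 and 25136 in heat. The difference was 5.41 ± 0.13, with no overlap of groups. SSB1 (YDL229W, chromosome IV, 44065 to 45906) went the other way. SSB1 stood at 4749, 4268 and 4079.6 CPM without stress, 1461, 1710.5 and 1691 in NaCl and 124, 101 and 113 in heat. Every stressed library was below the unstressed ones and the heated libraries were the lowest, a difference of -3.85 ± 0.10. SSZ1 fell less, with a difference of -0.95 ± 0.08. SSA1 with SSA2 and SSB1 with SSB2 are near-identical copies whose reads the counting could have shared, so values within each pair are uncertain, while both members of each pair moved the same way. SSE1 responded to heat by 2.91 and to NaCl by -0.11, whereas SSE2 responded to both, by 5.14 and 3.04.

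Chaperones that assist Hsp90 were mostly higher in heat. Of 14 genes for Hsp90 and its co-chaperones, 11 were higher in heat and 2, PPT1 and SGT1, were lower, with a median of 1.26, and 5 were raised at least 2-fold by heat alone. CPR6, a cyclophilin that joins Hsp90, differed by 4.02 ± 0.08, AHA1, an activator of its ATPase, by 3.70 ± 0.08, HCH1, a related activator, by 3.65 ± 0.09, and STI1, which links Hsp70 to Hsp90, by 3.44 ± 0.09. Their NaCl responses lay between -0.60 (HCH1) and 0.94 (STI1). CNS1, a co-chaperone of Hsp90 tied to translation, fell in both stresses, with responses of -1.77 in heat and -3.30 in NaCl. Of 13 Hsp40 and exchange factor genes, 8 were higher in heat and 3, SNL1, JJJ1 and ZUO1, were lower, with a median of 0.77. ZUO1 is the partner of SSZ1 on the ribosome. APJ1, an Hsp40, differed by 3.67 ± 0.08 and SIS1, the essential Hsp40, by 3.00 ± 0.09.

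Chaperones inside organelles were higher in heat too. In mitochondria 7 of 12 were higher in heat and 0 lower, with a median difference of 0.49 and a median NaCl response of -0.02. HSP60, the chaperonin, responded by 3.10 to heat and -0.30 to NaCl, its partner HSP10 by 3.00 and 0.06, and the import Hsp70 SSC1 by 2.52 and -0.11. HSP78, a mitochondrial disaggregase, is the exception of those named, since NaCl raised it too, by 2.18. In the endoplasmic reticulum 22 of 31 folding and unfolded protein response genes were higher in heat and 2, SSS1 and SBH1 of protein translocation, were lower, with a median of 0.38. KAR2 (YJL034W, chromosome X, 381327 to 383375), the Hsp70 of that compartment, led them. KAR2 stood at 979, 941 and 979 CPM without stress, 899, 867 and 881 in NaCl and 17335, 14596 and 15873 in heat. The NaCl libraries lay just below the unstressed ones and the heated libraries stood above both, a difference of 4.17 ± 0.08. ERO1, which makes disulfide bonds, differed by 3.27 ± 0.08, and HAC1, the transcription factor of the unfolded protein response, by 1.55 ± 0.10.

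Genes for protein breakdown moved less. Of 33 proteasome genes, 26 were higher in heat and 0 lower, with a median of only 0.31, and 1, RPN4, the transcription factor of the proteasome genes, passed 2-fold at 1.16 ± 0.07. As a share of library totals, without TMM, the list took 0.531% ± 0.00943 in NaCl and 0.568% ± 0.0454 in heat. Heat replicate 1, at 0.515%, lay below every NaCl library, so the small median depends on the scaling. In the ubiquitin system 15 of 25 were higher and 6 lower. Its median of 0.25 became -0.02 under library totals alone. UBI4, the polyubiquitin gene, rose by 4.64 in heat and 2.06 in NaCl, and UBC4, a ubiquitin-conjugating enzyme, by 2.05 in heat with an NaCl response of 0.05.

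**Figure D2:**
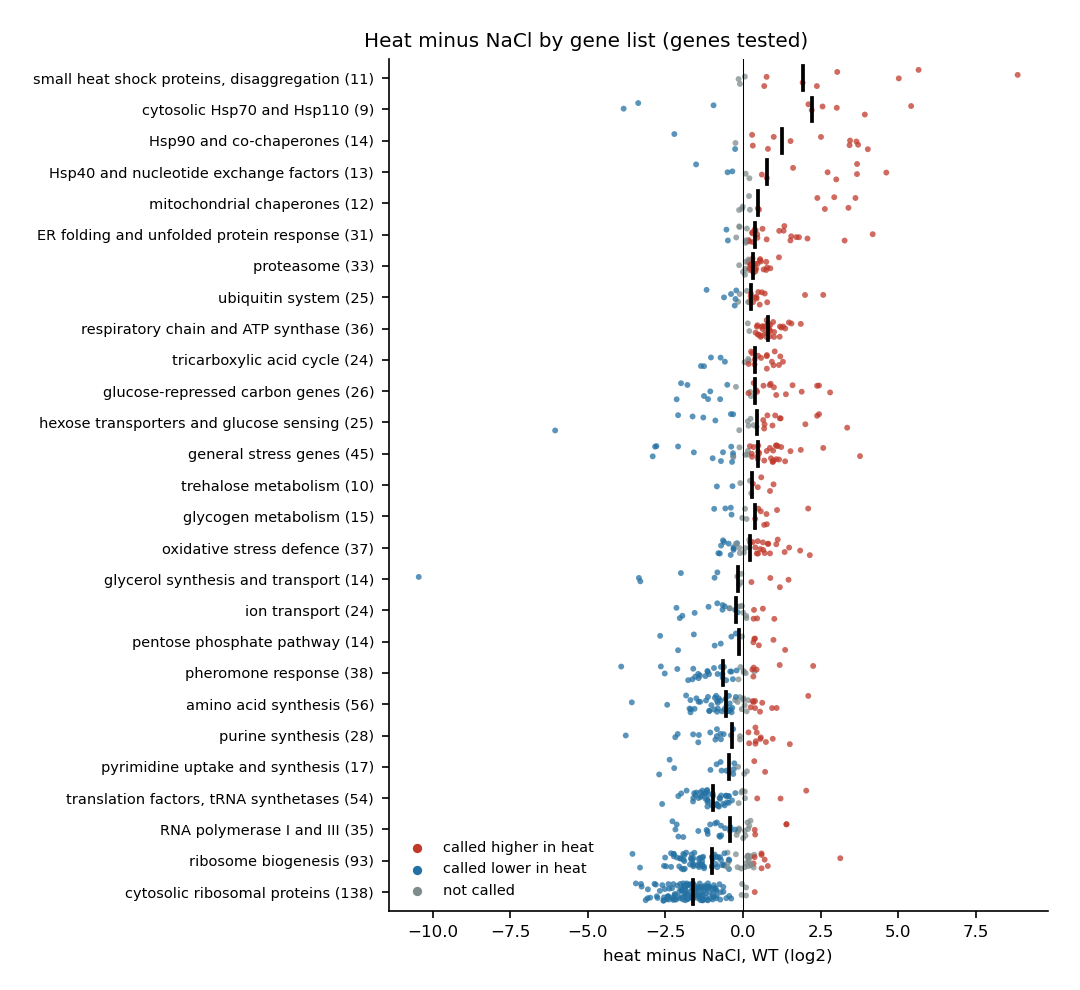
Heat minus NaCl log2 difference in WT for each tested gene of 27 lists, with the median of each list as a bar; red genes were higher in heat, blue genes lower and grey genes not called. The chaperone lists reach far to the right, the ribosomal protein and ribosome biogenesis lists to the left, and the glycerol list has 1 gene beyond -10.

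At the NaCl end stood STL1 (YDR536W, chromosome IV, 1508005 to 1509714), which encodes a proton symporter that takes up glycerol. STL1 stood at 0.473, 0.849 and 0.467 CPM without stress, 5847, 5953 and 5696 in NaCl and 5, 3.7 and 3.94 in heat. It was 1393-fold higher in NaCl, a log2 difference of -10.44 ± 0.15 (adjusted p = 8.21e-21 in edgeR). The heated libraries were above the unstressed libraries, yet both were at a small fraction of the NaCl level. Other glycerol genes differed far less. GPP1 and GPP2 encode the phosphatases of the last step of glycerol synthesis, and they differed by -3.35 ± 0.08 and -3.31 ± 0.08. GPD1 (YDL022W), the glycerol 3-phosphate dehydrogenase of the first step, rose in both stresses. GPD1 stood at 423, 364 and 391 CPM without stress, 13606, 12183 and 10504 in NaCl and 3396, 2871 and 2787 in heat. NaCl was the highest group, heat the next, and no groups overlapped, with a difference of -2.00 ± 0.10.

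Over the 14 genes of glycerol synthesis and transport, 4 were higher in heat, 6 lower and 4 not called, with a median of -0.16. The list took 0.273% ± 0.00217 of counts in unstressed cells, 3.14% ± 0.201 under NaCl and 0.588% ± 0.0136 in heat. YPR1 and DAK1 completed the lower members, with -0.92 ± 0.07 and -0.83 ± 0.07. The 4 higher members were GPD2, the isoform of GPD1 tied to redox balance, with 0.88 ± 0.08, GCY1, a glycerol dehydrogenase, with 1.46 ± 0.08, DAK2, a dihydroxyacetone kinase, with 1.18 ± 0.12, and FPS1, the glycerol export channel. FPS1 differed by 0.27 ± 0.09, a call that was lost at -0.00070 under library totals alone and at 0.25 with only the libraries compared. The FPS1 call was also lost at 0.22 with only the 9 WT libraries, at 0.16 without NaCl replicate 1 and at 0.17 without heat replicate 1. GUT1 and GUT2, which break glycerol down, and GUP1 and GUP2 were not called. Under library totals alone all 4 were called lower in heat, at -0.33 for GUT1, -0.40 for GUT2, -0.32 for GUP1 and -0.45 for GUP2, and GUT2 was called at -0.22 without heat replicate 1.

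Sodium export followed NaCl. ENA1, ENA2 and ENA5, near-identical sodium pump genes side by side on chromosome IV, differed by -2.15 ± 0.10, -2.04 ± 0.10 and -1.95 ± 0.09, and how reads were divided among them is uncertain. PPZ1, a phosphatase that restrains ENA1 and potassium uptake, fell by 1.20 in heat and responded to NaCl by 0.36. Of 24 ion transport genes, 5 (NHA1, PMA1, PMP2, PMP3 and SAT4) were higher in heat and 12 lower, with a median of -0.22. Of 12 calcineurin genes and targets, 3 (CMK2, GSC2 and CCH1) were higher and 4 (CNA1, CNB1, CMK1 and MID1) lower. The call of CMK2, a calmodulin-dependent kinase, was lost at 0.071 under library totals alone. The call of MID1 was lost at -0.18 without NaCl replicate 1 and at -0.21 without heat replicate 3. CNA1, a catalytic subunit of calcineurin, differed by -1.25 ± 0.07.

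Messages of the kinase cascade that senses salt were close between the stresses for most members. Of 23 HOG pathway components 6 were higher in heat, 8 lower and 9 not called, 13 were close, and the median of 0.08 became -0.20 under library totals alone. Over all genes 32.9% were higher, 33.2% lower and 31.1% close. At least 2-fold, 0 of the 23 were higher and 3 lower, against 7.71% and 12% of all genes. The calls of PTP2, SSK2 and PTC3 were lost under library totals alone. That of PTC3 was also lost with only the libraries compared and with some single libraries left out. HOG1 itself stood at 344, 334 and 326 CPM without stress, 476, 411 and 388 in NaCl and 441, 372 and 368 in heat. The difference of -0.11 ± 0.08 was not called, and its groups overlapped. It was called at -0.20 without heat replicate 1 and at -0.38 under library totals alone. PBS2, the kinase above Hog1, was higher in heat by 0.66 ± 0.06. The largest differences were in a phosphatase and a membrane sensor. PTP3, which removes phosphate from Hog1, fell by 2.65 in heat with an NaCl response of 0.40, and MSB2, an osmosensor, differed by -1.83 ± 0.08. RCK2, a kinase that Hog1 activates, was higher in heat by 0.70 ± 0.08, and its paralog RCK1 was higher in NaCl, with -1.66 ± 0.12.

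Of 33 genes of stress transcription factors 12 were higher in heat and 12 lower, with a median of -0.01. These counts are near the shares of all genes, 32.9% higher and 33.2% lower. Calls of some members in each direction were lost under other settings. HSF1 was higher in heat by 0.99 ± 0.07. MSN2 was higher in NaCl, with -1.06 ± 0.10, while its paralog MSN4 was higher in heat, with 0.40 ± 0.09, a call lost under library totals alone. CIN5, a salt-tolerance factor of the Yap family, rose in both and more in NaCl, with -1.47 ± 0.08. SKO1, the partner of Hog1 at cyclic AMP response elements, was higher in heat by 0.81 ± 0.08, and HOT1, which acts at STL1 and GPD1, was lower, with -0.48 ± 0.11.

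Hexose transporters went both ways. HXT1 (YHR094C, chromosome VIII, 290913 to 292625), the low-affinity transporter, was raised by NaCl and lowered by heat. HXT1 stood at 659.8, 639 and 601 CPM without stress, 10193, 10730.0 and 11093 in NaCl and 185, 136 and 162 in heat. The NaCl libraries were above and the heated libraries below the unstressed range, a difference of -6.05 ± 0.11. HXT2, of high affinity, was raised by heat alone. HXT2 stood at a mean of 249 CPM without stress, at 176, 188 and 222 in NaCl and at 2307, 1708 and 1965 in heat. The heated libraries stood far above the others, the NaCl libraries lay just below the unstressed ones, and the difference was 3.35 ± 0.11. HXT6 and HXT7, high-affinity near-identical copies, differed by 2.45 ± 0.10 and 2.38 ± 0.10. HXT3, another low-affinity transporter, fell in both stresses and less in heat, with a difference of 0.95 ± 0.09. HXT5 (YHR096C), a transporter of slow growth, rose in both. HXT5 stood at 6.63, 6.13 and 5.88 CPM without stress, 1819, 1948 and 2214 in NaCl and 2146, 1606 and 1737 in heat. The stressed groups overlapped and the 95% interval of the difference ran from -0.33 to 0.08, though NaCl was called higher at -0.40 under library totals alone and at -0.26 without heat replicate 1. Of the 25 hexose transporter and glucose sensing genes 12 were higher in heat, 7 lower and 6 not called, with a median of 0.43. HXT9 with HXT11, HXT13 with HXT17 and HXT15 with HXT16 are near-identical copies too, so values within each pair are uncertain. The call of HXT15 was lost without NaCl replicate 2 and without heat replicate 1. MTH1, a corepressor of HXT genes, was higher in NaCl, with -1.63 ± 0.09. MIG2, a glucose repressor, fell further in heat, with -2.09 ± 0.14.

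**Figure D3:**
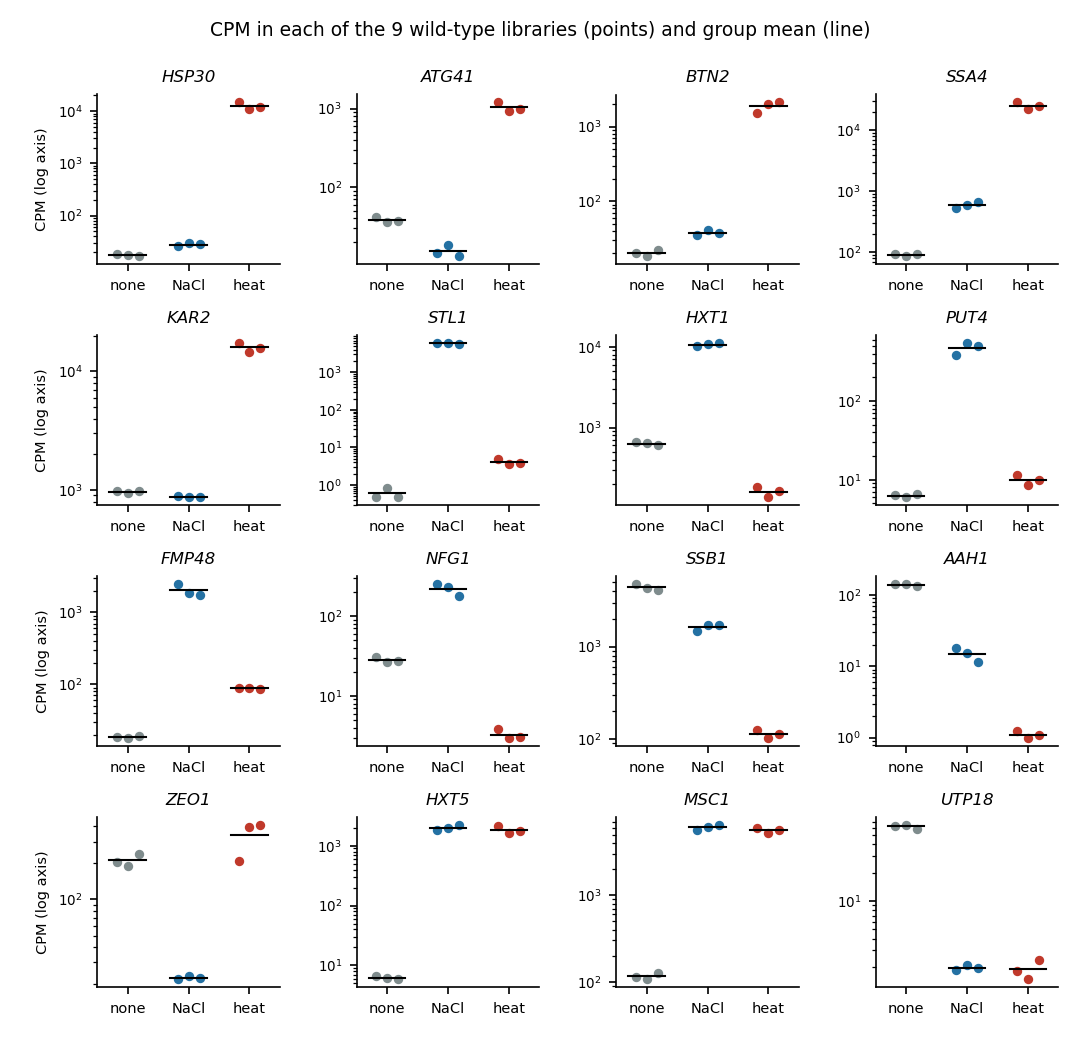
CPM on a log axis in each of the 9 WT libraries (3 unstressed, 3 NaCl, 3 heat) for 16 genes. HSP30, BTN2, SSA4 and KAR2 are highest in heat, STL1, HXT1, PUT4, FMP48 and NFG1 in NaCl, ZEO1 is low in NaCl alone, and HXT5, MSC1 and UTP18 stand at like levels in both stresses.

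Other genes at the NaCl end belong to varied processes. NFG1 (YLR042C, chromosome XII, 229966 to 230451), a cell wall protein that restrains filamentous growth, rose in NaCl and fell in heat. NFG1 stood at 31, 26.8 and 27.3 CPM without stress, 252, 231 and 180.4 in NaCl and 3.81, 2.93 and 3.07 in heat. The groups were in the order heat, unstressed, NaCl without overlap, a difference of -6.09 ± 0.22. FIT1, a cell wall mannoprotein that retains iron siderophores, had opposite responses too, with a difference of -5.84 ± 0.14. PUT4 (YOR348C), the proline permease, was raised by NaCl alone. PUT4 stood at 6.31, 5.96 and 6.5 CPM without stress, 379, 542 and 503 in NaCl and 11.5, 8.47 and 9.86 in heat. Its heated libraries lay above the unstressed ones by less than 2-fold, and the difference was -5.58 ± 0.15. FMP48, a putative kinase of mitochondria, rose by 6.79 in NaCl and 2.26 in heat. PRM10 and its neighbour YJL107C on chromosome X differed by -3.92 ± 0.10 and -3.97 ± 0.12. YHR033W differed by -3.82 ± 0.10, and GRE2, an NADPH methylglyoxal reductase used as an osmotic reporter, by -2.83 ± 0.09.

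Most general stress genes rose in both. Of 45 such genes, 28 were higher in heat, 12 lower and 7 close, with a median of 0.47, and 29 fell in the shared rise, 11 in the rise higher in heat and 5 in the rise higher in NaCl. Their summed counts took 0.77% ± 0.0184 without stress, 8.03% ± 0.236 in NaCl and 8.51% ± 0.117 in heat. The stressed shares differed by more than their SDs and by far less than either differed from the unstressed share. The gene with the largest risen and close pair of responses was YNL194C, which encodes a membrane protein of the eisosome family, with 8.84 in NaCl and 8.97 in heat. ALD3 (YMR169C), an aldehyde dehydrogenase, stood near it. ALD3 stood at 20.1, 19.2 and 21.1 CPM without stress, 4618, 4431 and 4365 in NaCl and 4126, 3818 and 3674 in heat. The stressed groups lay next to each other without overlap, with a difference of -0.21 ± 0.07 that passed the test, and its interval was within -0.5 to 0.5. Without heat replicate 3 the difference was -0.18 and was not called. MSC1 and AIM17 rose as evenly, with differences of -0.12 ± 0.09 and 0.17 ± 0.11, neither called. AIM17 was called at 0.36 without NaCl replicate 1, and MSC1 at -0.38 under library totals alone.

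Storage carbohydrate genes were largely shared. Of 10 trehalose genes, 9 rose at least 2-fold in both stresses to within 2-fold of each other, 5 were higher in heat and 2, TPS2 and PGM1, were lower. TPS1, trehalose 6-phosphate synthase, had a difference of 0.32 ± 0.08 that was lost under library totals alone. TPS2, the phosphatase that completes trehalose, was lower in heat, with -0.84 ± 0.07, while TSL1, a regulatory subunit, was higher by 0.98 ± 0.10, so 2 subunits of the trehalose synthase complex differed in opposite directions. NTH1, the trehalase that breaks it down, was higher in heat by 0.87 ± 0.07. Of 15 glycogen genes 8 were higher and 4 lower, with a median of 0.39. GPH1, glycogen phosphorylase, was higher by 2.10 ± 0.09 and GSY2, glycogen synthase, by 0.77 ± 0.08.

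**Figure D4:**
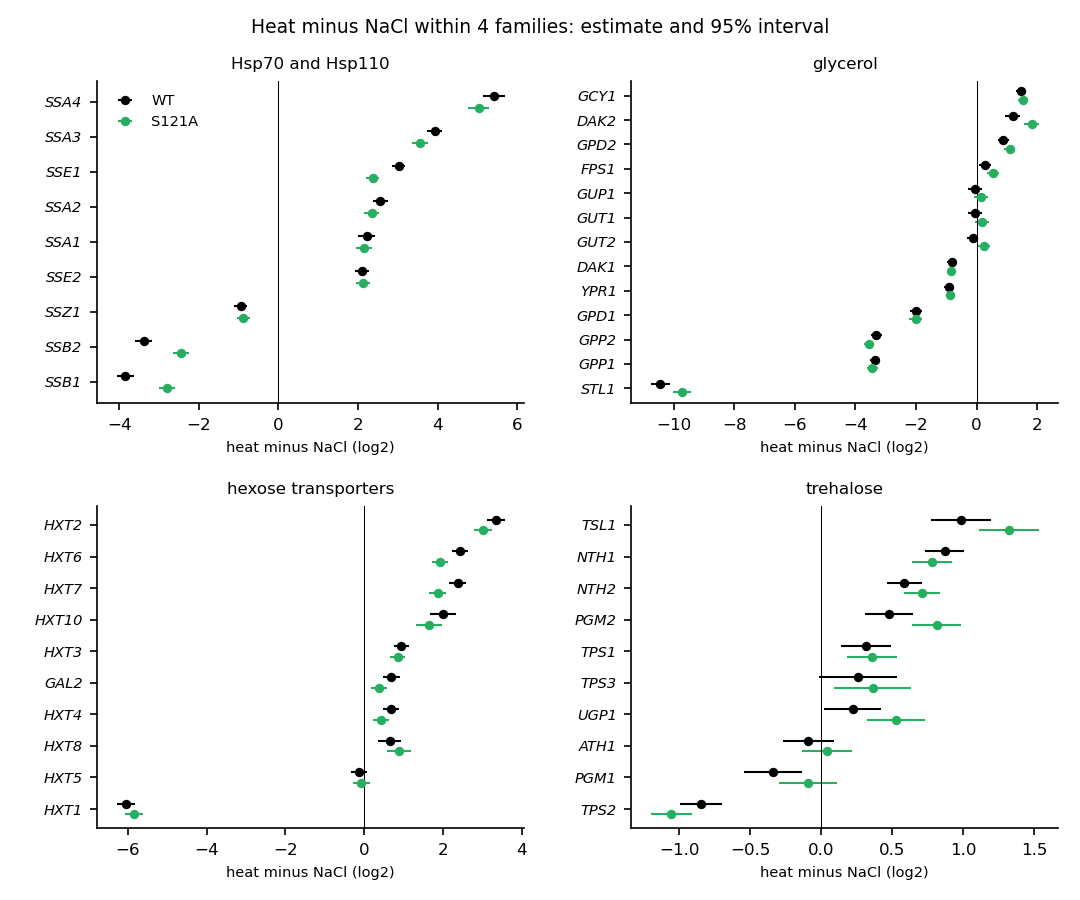
Heat minus NaCl log2 difference with its 95% interval for members of the Hsp70 and Hsp110, glycerol, hexose transporter and trehalose groups, in WT and in S121A. Members of 1 family stand on both sides of 0 in each panel, and trehalose genes stay within 1 of it in WT.

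Genes of respiration were higher in heat as a group of small differences. Of 36 nuclear genes of the respiratory chain and ATP synthase, 34 were higher in heat and 0 lower, with a median of 0.79. CYC7, the stress form of cytochrome c, differed by 1.86 ± 0.13 and ATP17, an ATP synthase subunit, by 1.36 ± 0.12. Of 24 genes of the tricarboxylic acid cycle, 16 were higher and 5 lower, with a median of 0.37. ICL1, isocitrate lyase of the glyoxylate cycle, was raised by NaCl alone, with a difference of -2.14 ± 0.10. Of 26 glucose-repressed genes 15 were higher and 8 lower. In the pentose phosphate pathway 6 of 14 were higher and 7 lower, and paralogs parted: GND2 was higher in heat by 1.35 ± 0.08, whereas NQM1 and TKL2, the stress-induced transaldolase and transketolase, were higher in NaCl, with -2.09 ± 0.08 and -1.58 ± 0.09. Of 21 glycolytic genes 12 were higher and 5 lower, and their median of 0.26 became -0.0018 under library totals alone. Of 37 oxidative stress genes 19 were higher and 11 lower, with a median of 0.23 that became -0.04 under library totals alone. OYE2, an NADPH oxidoreductase, differed by 2.15 ± 0.08, and AHP1, a peroxiredoxin, by 1.34 ± 0.08.

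Messages for ribosomal proteins fell much further in heat. Of 138 cytosolic ribosomal protein genes, 133 were lower in heat than in NaCl and 1, RPS14B, was higher, with a median of -1.60. The median response was -2.40 to heat and -0.70 to NaCl, and 93 of the genes fell at least 2-fold in heat alone. Their summed counts were 18.1% ± 0.556 in unstressed cells, 10.6% ± 0.454 in NaCl and 2.85% ± 0.12 in heat. RPS26B (YER131W), a small subunit protein, had the largest difference. RPS26B stood at 536, 455 and 578 CPM without stress, 192, 169 and 175 in NaCl and 12.6, 17.5 and 18.6 in heat. The groups stepped down from unstressed to NaCl to heat without overlap, a difference of -3.45 ± 0.15. RPS0B, RPS9B and RPL26B followed, with -3.29 ± 0.10, -3.27 ± 0.12 and -3.14 ± 0.12. Many ribosomal proteins are encoded by paralog pairs, and how the counting divided reads within a pair is unknown here.

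Ribosome biogenesis genes fell hard in both stresses. The median response of the 93 genes was -5.04 in heat and -3.74 in NaCl, and 66 were lower in heat, 8 higher and 19 not called. By pattern, 42 were shared falls and 48 were deeper in heat. NOP7, needed for the large subunit, went from 162, 169.7 and 163 CPM to 19, 19.4 and 19 in NaCl and 1.58, 1.84 and 2.27 in heat. It fell in 2 clear steps and differed by -3.32 ± 0.10, and GAR1, of the H/ACA particles that modify rRNA, by -3.56 ± 0.09. UTP18 (YJL069C), of the small subunit processome, shows the shared form, from 63.4, 64.3 and 58.5 CPM to 1.87, 2.08 and 1.92 in NaCl and 1.82, 1.48 and 2.34 in heat. Those stressed groups overlapped, with a difference of -0.06 ± 0.14. RRP14, a nucleolar factor, was the exception, at 27.9, 28.6 and 25.7 CPM without stress, 1.4, 2.1 and 2.63 in NaCl and 14.8, 18.3 and 20.7 in heat. NaCl alone lowered it at least 2-fold, and it differed by 3.13 ± 0.23.

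The rest of the growth machinery had the same direction. Of 35 RNA polymerase I and III genes 20 were lower in heat, and 4, RRN5, RRN11, RPC25 and TFC6, were higher, with a median of -0.42. RPA190 and RPA135, the largest subunits of polymerase I, differed by -2.27 ± 0.12 and -2.18 ± 0.11. Of 54 translation factor and tRNA synthetase genes 46 were lower, 3 (EFB1, HEF3 and ANB1) were higher, and the median was -0.96. YEF3, a fungal elongation factor, differed by -2.61 ± 0.10 and TIF4631, an eIF4G, by -2.09 ± 0.08. EFB1, an exchange factor of eEF1A, was higher in heat by 2.03 ± 0.07, and its gene overlaps the small nucleolar RNA gene SNR18, so its count is uncertain.

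Metabolic genes of growth varied by pathway, against 33.2% of all genes lower in heat and 32.9% higher. Of 56 amino acid synthesis genes 37 were lower and 10 were higher, and the median was -0.55. ILV3, of branched-chain amino acid synthesis, fell by 4.25 in heat and responded to NaCl by -0.67, and LYS20, homocitrate synthase of the lysine pathway, differed by -2.44 ± 0.08. ARO9, an aromatic aminotransferase that breaks down amino acids, was the member highest in heat, by 2.10 ± 0.08. Of 28 methionine and sulfur genes 11 were lower, 6 higher and 11 not called, with a median of -0.14, a lower share near that of all genes. SAM1, which makes S-adenosylmethionine, differed by -3.25 ± 0.10. Of 28 purine genes 15 were lower and 11 higher, so both directions were common, with AAH1, adenine deaminase, the lowest. AAH1 stood at 143, 143 and 137 CPM without stress, 17.9, 15.5 and 11.6 in NaCl and 1.22, 0.977 and 1.1 in heat. The groups fell apart in the order unstressed, NaCl, heat, with a difference of -3.78 ± 0.14. Of 17 pyrimidine genes 12 were lower and 2, URA8 and PPR1, were higher, and of 26 ergosterol genes 15 were lower and 5 higher. URA1, dihydroorotate dehydrogenase, differed by -2.70 ± 0.15 and ERG13, HMG-CoA synthase, by -1.50 ± 0.13. NRD1, a factor of transcription termination, fell by 3.29 in heat and did not fall in NaCl, where it responded by 0.33.

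Few genes were lowered by NaCl alone. ZEO1 (YOL109W, chromosome XV, 110297 to 110638), a peripheral membrane protein tied to the cell integrity pathway, had the largest such difference. ZEO1 stood at 204, 188 and 237 CPM without stress, 21.8, 23.3 and 22.5 in NaCl and 207, 396 and 411 in heat. The NaCl libraries lay far below the rest, while heat replicate 1 lay within the unstressed range and the other two heated libraries above it, a difference of 3.91 ± 0.24. SMC3, a cohesin subunit, differed by 2.16 ± 0.14, DSE4, a daughter-cell glucanase, by 2.11 ± 0.09, and ADH3, mitochondrial alcohol dehydrogenase, by 1.65 ± 0.08. CDC6, which loads the replication helicase, stood at 12.3, 10.6 and 9.41 CPM in NaCl and 23.5, 24.2 and 24.4 in heat, a difference of 1.16 ± 0.11, with every heated library above every NaCl library. Of 31 G1/S genes 11 were higher in heat and 14 lower, against 32.9% and 33.2% of all genes, with a median of 0.00. CLN2, a G1 cyclin, fell in both and further in heat, with -1.81 ± 0.11.

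Most mating genes were lower in heat than in NaCl. Of 38 pheromone response genes, 26 were lower in heat and 6 higher, with a median of -0.66, and of 7 a-specific genes 6 were lower, 0 higher and 1 not called. Lower in heat than in NaCl was not a fall for every member, since the a-specific gene ASG7 rose in both stresses and less in heat. BAR1, the protease that degrades alpha factor, fell by 2.92 in heat with an NaCl response of -0.27. STE12, the transcription factor of mating genes, differed by -2.52 ± 0.10. PRM5, which the cell integrity pathway also induces, rose in heat by 1.38. Of 51 cell wall genes 20 were higher in heat and 20 lower, against 32.9% and 33.2% of all genes. TIP1, a cell wall mannoprotein of cold and heat shock, was higher by 3.06 ± 0.08, PST1, a cell integrity target, by 2.20 ± 0.11, and SCW10, a glucanase-like protein, was lower, with -2.75 ± 0.10. RLM1, the cell integrity transcription factor, was higher in heat by 1.48 ± 0.10.

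Nutrient genes differed in both directions, as did all genes, of which 32.9% were higher in heat and 33.2% lower. Of 41 amino acid permease and nitrogen genes, 9 were higher in heat and 16 lower, and 18 were close. GAP1, the general amino acid permease, was raised by NaCl, with -2.04 ± 0.10. Of 31 iron regulon genes, 11 were higher and 12 lower. FIT2 was higher in heat by 1.72 ± 0.10, the reverse of FIT1, and FRE4, a ferric reductase, was higher in NaCl, with -3.31 ± 0.13. Of 24 phosphate genes 8 were higher and 5 lower, and PHO90, a low-affinity phosphate transporter, differed by -2.74 ± 0.09. Of 14 zinc genes 3 were higher and 6 lower. Of 29 vacuolar protease and autophagy genes 14 were higher and 4 lower, with 18 in the shared rise, and ATG31 was the member highest in heat, by 1.31 ± 0.14.

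Among 11 histone genes 7 were higher in heat and 2 lower, none by 2-fold, with a median of 0.31. HTA1, which the plasmid supplies, was higher in heat by 0.57 ± 0.10, and HTB1, from the same plasmid, was lower, with -0.25 ± 0.09, a call lost at -0.23 without NaCl replicate 1, at -0.22 without NaCl replicate 3 and at -0.16 without heat replicate 1. HTA2 and HTB2, deleted per the labels, still collected a mean of 19.4 and 29.3 CPM in unstressed WT, and how the counting treated reads shared with HTA1 and HTB1 is unknown here. Both are among the 11. HTB2 was called higher in heat, and that call was lost at -0.0049 under library totals alone and at 0.11 without heat replicate 1. The HTB2 call was also lost at 0.25 with only the libraries compared and at 0.22 with only the 9 WT libraries. HHF1, a near-identical copy of HHF2, lost its call in all of these settings but the last left-out library. It also lost it without NaCl replicate 1, without NaCl replicate 2, without heat replicate 2 and without heat replicate 3.

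Short motifs upstream were counted without a test, among genes at least 4-fold apart. In the 300 bases from 250 before to 50 after the start codon, the heat shock core GAANNTTC stood in 25.7% of 109 genes higher in heat, 12.3% of 162 lower and 11.9% of all 5854. Among genes at least 2-fold apart the directions hardly differed in the core, which stood in 14.2% of 436 higher and 14% of 650 lower. The 3-unit element, which contains the core, stood in 12.8%, 0.617% and 0.803%, and at 2-fold in 4.36% of the higher and 0.769% of the lower. AGGGG stood in 22.9% of the higher genes, 13% of the lower and 21.8% of all, and at 2-fold in 28.2% and 14.6%. The PAC element GCGATGAG of ribosome biogenesis genes stood in 1.83%, 13% and 4.03%, and the RRPE element TGAAAATTT in 4.59%, 9.88% and 3.69%. At 2-fold PAC stood in 1.83% of the higher and 12.3% of the lower, and RRPE in 3.44% and 9.08%. ACGTCA hardly differed between the directions in this window. It stood in 9.17% of the higher genes, 7.41% of the lower and 7.58% of all, and at 2-fold in 8.94% and 9.69%. All letters were sought on both strands.

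The 500 bases before the start codon, a window chosen after the data were seen, were read by pattern. AGGGG stood before 70.5% of the shared rises, 74.1% of the rises higher in heat and 75.8% of those higher in NaCl, against 38.5% of the heat-specific rises, 44.3% of the NaCl-specific rises and 34.4% of all genes. The 3-unit heat shock element stood before 9.09% of the heat-specific rises, 7.14% of the rises higher in heat, 4.92% of the 61 NaCl-specific falls and 1.5% of all. ACGTCA stood before 39.4% of the rises higher in NaCl and 31.6% of the NaCl-specific rises, against 21.3% of the NaCl-specific falls, 17% of the falls deeper in heat and 13.4% of all. PAC stood before 34.1% of the falls deeper in heat, 29.4% of the 17 falls deeper in NaCl, 18.2% of the shared falls, 2.38% of the heat-specific falls and 4.95% of all.

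The same difference in the 6 stressed S121A libraries, which share none with the WT comparison, covered 4104 genes (64.2%). Of the 4226 genes called in WT, 3376 (79.9%) were called the same way in S121A and 30 (0.71%) the other way. Of the 1258 genes at least 2-fold apart in WT, 1180 (93.8%) were called the same way. The list medians in S121A were 1.15 for small heat shock genes, 2.14 for the Hsp70 family, -1.46 for ribosomal proteins and -0.78 for ribosome biogenesis. The test of the genotype difference itself called 604 genes (9.44%), 379 higher and 225 lower in S121A. That count depends on single libraries. Without WT heat replicate 1 it became 768 higher and 724 lower, without WT heat replicate 2 the higher count became 243, without WT heat replicate 3 the counts became 234 and 94, and without S121A NaCl replicate 3 they became 229 and 104. The lower count alone became 127 without WT NaCl replicate 2 and 129 without S121A heat replicate 1. With only the libraries compared, it was 190 and 73.

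STL1 had a heat minus NaCl difference of -9.72 in S121A against -10.44 in WT, HSP30 of 7.51 against 8.84 and BTN2 of 3.90 against 5.65, all 3 closer to 0 in the mutant. GPD1 and GPP1 stayed within 0.1 of WT, with -2.01 and -3.44. HCA4, an RNA helicase of ribosome biogenesis, and SIT1, a siderophore transporter, were lower in heat than in NaCl in WT, with -1.32 ± 0.12 and -1.19 ± 0.10, and stood at 0.08 and 0.02 in S121A. MNC1 reversed, from -0.67 in WT to 1.22 in S121A.

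**Figure D5:**
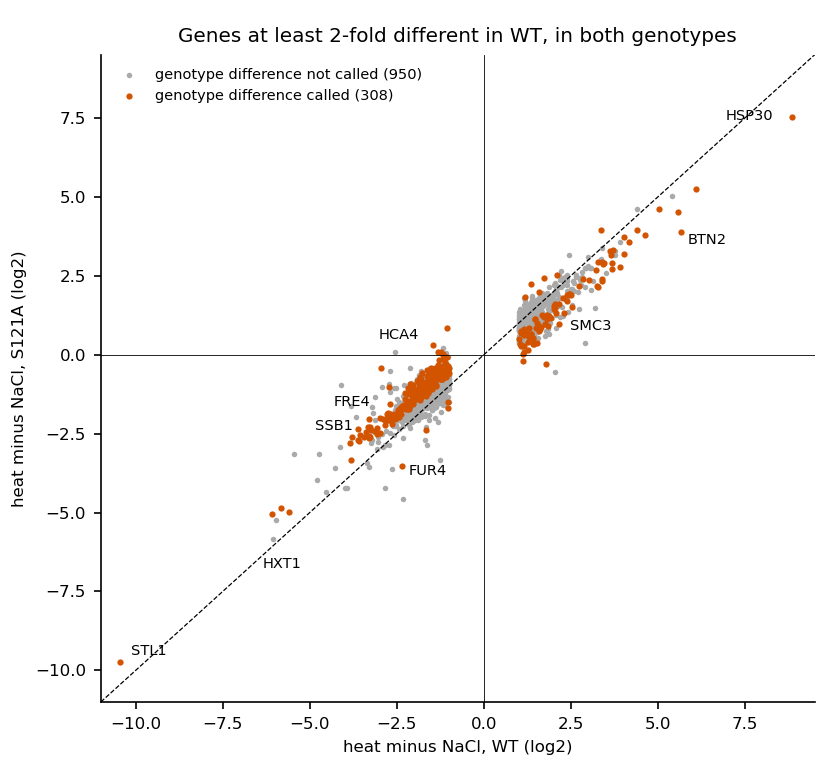
Heat minus NaCl log2 difference in WT (horizontal axis) against S121A (vertical axis) for the 1258 genes at least 2-fold apart in WT, 3 libraries a group in each genotype. Points keep their side of 0 for most genes, with 1180 called the same way in S121A.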

How the data were processed

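Raw counts of reads per gene were taken from 1 table for the whole series, deposited by the authors without normalization, 1 column per library. The 9 WT and 9 S121A libraries were grouped by title, and 0 columns were left without a sample. Per the submitters' processing notes, featureCounts 1.4.6-p5, TopHat2 2.0.1 and DESeq2 1.10.1 were used, and the builds were sacCer3 and R64. Per the labels' protocols, RNA came from hot phenol extraction and a stranded poly(A) kit, read as 50 bp pairs. Strand setting and treatment of multiply mapped reads are not given in the sources used here, so near-identical copies and overlapping genes are called uncertain.

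Of 6746 features 6395 passed filterByExpr, and those left out held 0.00142% of the counts. Coordinates exist for the 6025 features matched to R64. Counts were scaled by TMM and fitted with a robust quasi-likelihood model in edgeR 4.0.16 under R 4.3.3, with 1 mean for each of the 6 groups, two-sided, adjusted p under 0.05. A count of 3 equals 0.0566 to 0.0758 counts per M by library before TMM scaling, a scale unlike that of the CPM given above. That floor covers counting error only. The SE rests on a spread pooled over all 18 libraries, and DESeq2 1.42.0 was an alternative. The heat and NaCl responses share the unstressed libraries, and each shares its stressed libraries with the main comparison.

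The 48 gene lists, the naming rule and the members were chosen with earlier results of these data known. The rule took the 15 largest differences each way with non-overlapping replicates and a mean of at least 10 CPM in the higher group, up to 4 members of each list, all members of the glycerol, hexose transporter, Hsp70, HOG, stress transcription factor, trehalose and histone lists, 6 risen and 6 fallen genes with close levels, 5 opposite genes each way and 5 genotype differences each way. Genes given by name without a value, as members of a count of 5 or fewer, were chosen after their values were seen. Upstream windows were cut from the R64 sequence and annotation by locus tag.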

Additional observations from a re-analysis of the deposited data

Results flagged for a closer look

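The heat minus NaCl difference differed between the genotypes for 69 of the 160 genes named with values, by the contrast of both differences in edgeR (adjusted p under 0.05), against 9.44% of all genes tested. In 64 of the 69 the S121A value lay closer to 0, and in 5 farther from it. Most of these genes were named for a large difference in WT, so a smaller value in a second set of libraries is partly fixed by that choice. The counts behind the calls move with single libraries as given above. Values below are the S121A minus the WT difference on the log2 scale.

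Chaperones and folding genes are given first, with HSP30 and RPN4 set beside them. Their values were -1.76 for BTN2, -1.33 for HSP30, -1.17 for CNS1, -1.04 for ZPR1, -0.95 for APJ1, -0.82 for CPR6, -0.82 for FES1, -0.77 for JEM1 and -0.77 for YDJ1. They were -0.65 for SSE1, -0.60 for KAR2, -0.53 for STI1, -0.49 for HCH1, -0.41 for HSP26, -0.39 for AHA1, -0.35 for HSP78, -0.35 for RPN4 and -0.34 for ERO1, and 0.93 for SSB2 and 1.05 for SSB1, which are lower in heat.

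Among other genes higher in heat the values were -1.19 for SMC3, -1.13 for ZEO1, -0.85 for ATG41, -0.63 for CYC7, -0.56 for EFB1, -0.55 for OYE2, -0.55 for CDC6, -0.53 for HXT6, -0.51 for HXT7 and -0.43 for LST8. They were 0.41 for ARO9, 0.43 for HTB2 and 0.63 for DAK2.

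Among genes higher in NaCl the values were -0.73 for RCK1, 0.45 for ENA1, 0.46 for ENA2, 0.47 for YHR033W, 0.60 for PUT4, 0.72 for STL1, 0.97 for FIT1, 1.05 for NFG1, 1.08 for GAP1, 1.28 for FRE4 and 1.89 for MNC1.

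Among growth genes lower in heat the values were 0.60 for ERG13, 0.67 for RPS9B, 0.67 for URA1, 0.70 for YEF3, 0.72 for RPL26B, 0.72 for RPS0B, 0.84 for ILV3, 0.84 for RPS26B and 0.85 for SAM1. They were 0.92 for RPA135, 1.02 for GAR1, 1.04 for NOP7, 1.05 for RPA190, 1.18 for AAH1 and 1.40 for HCA4.

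Among the remaining genes lower in heat the values were 0.39 for MSB2, 0.40 for MID1, 0.45 for BAR1, 0.51 for STE12, 0.62 for MIG2, 0.67 for SCW10, 0.91 for PHO90, 0.93 for NRD1, 1.03 for CLN2 and 1.21 for SIT1.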

How the results depend on the processing

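For the WT difference, DESeq2 called 2071 genes higher and 2178 lower, and leaving out 1 library at a time gave 1935 to 2128 higher and 1991 to 2133 lower. Library totals alone in place of TMM gave 1209 higher in WT, 954 higher and 3415 lower in S121A, 321 at least 2-fold higher, 361 falls deeper in heat, 69 rises higher in heat and 18 opposite genes up in NaCl. That setting shifts every difference by about -0.26, and it turned the direction of LEU2 (-0.026), FPS1 (-0.00070), SSK1 (-0.14), PTC2 (-0.20), PTC3 (-0.014), YAP1 (-0.19), SKN7 (-0.23) and HTB2 (-0.0049), of 317 genes followed. A mean of at least 10 CPM, which tests fewer genes, left 309 genes at least 2-fold higher, 124 heat-specific rises, 52 NaCl-specific rises, 38 NaCl-specific falls, 10 falls deeper in NaCl and 4 opposite genes up in NaCl. The genotype difference held 569 genes higher in S121A by DESeq2, 190 higher and 73 lower with only the libraries compared, and 229 to 768 higher and 94 to 724 lower with 1 library left out. The cause was not tested.

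Replicate numbers were not taken as pairs in the main model. Same-numbered heat and NaCl libraries had correlations of -0.103, -0.344 and 0.344, and heat and unstressed ones of 0.292, -0.152 and 0.476. Such mixed signs in so few libraries neither show nor exclude a pairing. With the number as a replicate block 2124 genes were higher and 2130 lower, and 3 of the 317 genes gained a call. Patterns were not run with only the libraries compared, since 3 groups enter each. Motif windows by pattern and the fit of only the 9 WT libraries, with 1875 higher and 2185 lower, were chosen after seeing the data.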
